A study of Mus musculus with 11 samples.

Results

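Integrins are cell surface receptors made of 1 alpha and 1 beta chain. The genes described are 9 integrin chains that lie outside the Itgax locus: the alpha chains Itgae, Itgal, Itga4, Itga5 and Itga6 and the beta chains Itgb1, Itgb2, Itgb3 and Itgb7. They were taken from a named list, and each was read by the probe set with the highest mean among those that carry its symbol alone. All 9 were measured, out of 19938 genes, and each had 1 such probe set, so no choice between probe sets was involved. RNA of classical dendritic cells (cDCs) was read on 11 arrays, the cells having been sorted from digested spleens of C57BL/6 mice. The groups were CD172a+ cDCs of Zeb2 fl/fl mice that carried a CD11c-Cre transgene and are labelled Zeb2-deficient (4 arrays), CD24+ cDCs of Zeb2 fl/fl mice without Cre (3 arrays), and CD172a+ cDCs of Zeb2 fl/fl mice without Cre (4 arrays). The last 2 are called controls. Floxed Zeb2 was thus shared by every group, only 1 group carried Cre, and the labels give no ages. Cre under CD11c sequences acts in cells that express CD11c, which is the protein of Itgax, and effects of the transgene and of Zeb2 loss cannot be told apart. Since the labels do not state that arrays of a group came from different mice, the p-values reflect spread among these arrays only, which may be technical.

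Integrins bind cell surface counter-receptors or matrix proteins, and the chain pairing sets which. The alpha E chain CD103 (Itgae) pairs with beta 7 and binds E-cadherin on epithelium. Alpha L (Itgal) pairs with beta 2 to form LFA-1, which binds ICAMs on other leukocytes, and alpha 4 (Itga4) pairs with beta 1 or beta 7 to bind VCAM-1 or MAdCAM-1. Alpha 5 and alpha 6 pair with beta 1, for fibronectin and laminins, and beta 3 (Itgb3) pairs with alpha V or, on platelets, with alpha IIb. CD103 is widely used as a marker of the cDC1 subset, to which CD24+ spleen cDCs correspond, while CD172a+ cDCs correspond to cDC2.

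The labels were checked first. Of 7 cDC1 markers, 6 were higher in control CD24+ than in control CD172a+ cDCs and 0 lower. Of 7 cDC2 markers 0 were higher and 7 lower. The cDC2 list holds Sirpa, the gene of CD172a itself, so part of that count is tied to the sort. It also holds Itgam, an integrin chain described below. Zeb2 averaged 8.79 ± 0.44 in CD172a+ cDCs labelled Zeb2-deficient and 8.33 ± 0.19 in control CD172a+ cDCs (SD, n = 4 each), so it was not lower in the labelled group (log2 difference 0.45, limma adjusted p = 0.998). Whether its probes fall in the excised exons is not known, so the reading is no check of the deletion. The arrays fell into a first set of 5 and a second set of 6 along the second principal component over all genes, which held 34.2% of the variance. Each group has arrays in both sets, with 1 CD24+ array in the first. The sets were found in the expression values and are not named in the labels, and values within each set are given below where they matter.

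In control CD24+ against control CD172a+ cDCs, 4 of the 9 chain genes passed the test in limma at an adjusted p below 0.05: Itgae, Itga6 and Itgb1 were higher in CD24+ cDCs and Itgb3 was lower. Over all genes 6.41% passed, 3.25% higher and 3.16% lower, and at an unadjusted p below 0.05 there were 4 of the 9 against 15.9% of all genes. In CD172a+ cDCs labelled Zeb2-deficient compared with control CD172a+ cDCs, 0 of 9 passed, where 0.0502% of all genes did, 0.0401% higher and 0.01% lower. At an unadjusted p below 0.05 in that comparison there were 2 of the 9, Itgae and Itgb3, against 3.88% of all genes. Between CD172a+ cDCs labelled Zeb2-deficient and control CD24+ cDCs, 4 of 9 passed, with 1 higher and 3 lower in the labelled group, and 7.17% of all genes passed, 3.25% higher and 3.92% lower. At an unadjusted p below 0.05 this comparison also held 4 of the 9, against 18% of all genes. The groups did not overlap for 4 members in each of the comparisons with CD24+ cDCs and for 0 members between the CD172a+ groups, and over all genes this held for 14.6% (control CD24+ against control CD172a+), 17.9% (labelled Zeb2-deficient against CD24+) and 2.1% (between the CD172a+ groups). The 3 comparisons share arrays, so their values for a gene are not independent. The median log2 difference of the 9 was 0.49 for CD24+ against control CD172a+ cDCs and -0.09 for labelled Zeb2-deficient compared with control CD172a+ cDCs, beside -0.02 and 0.0056 over all genes.

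**Figure D1:**
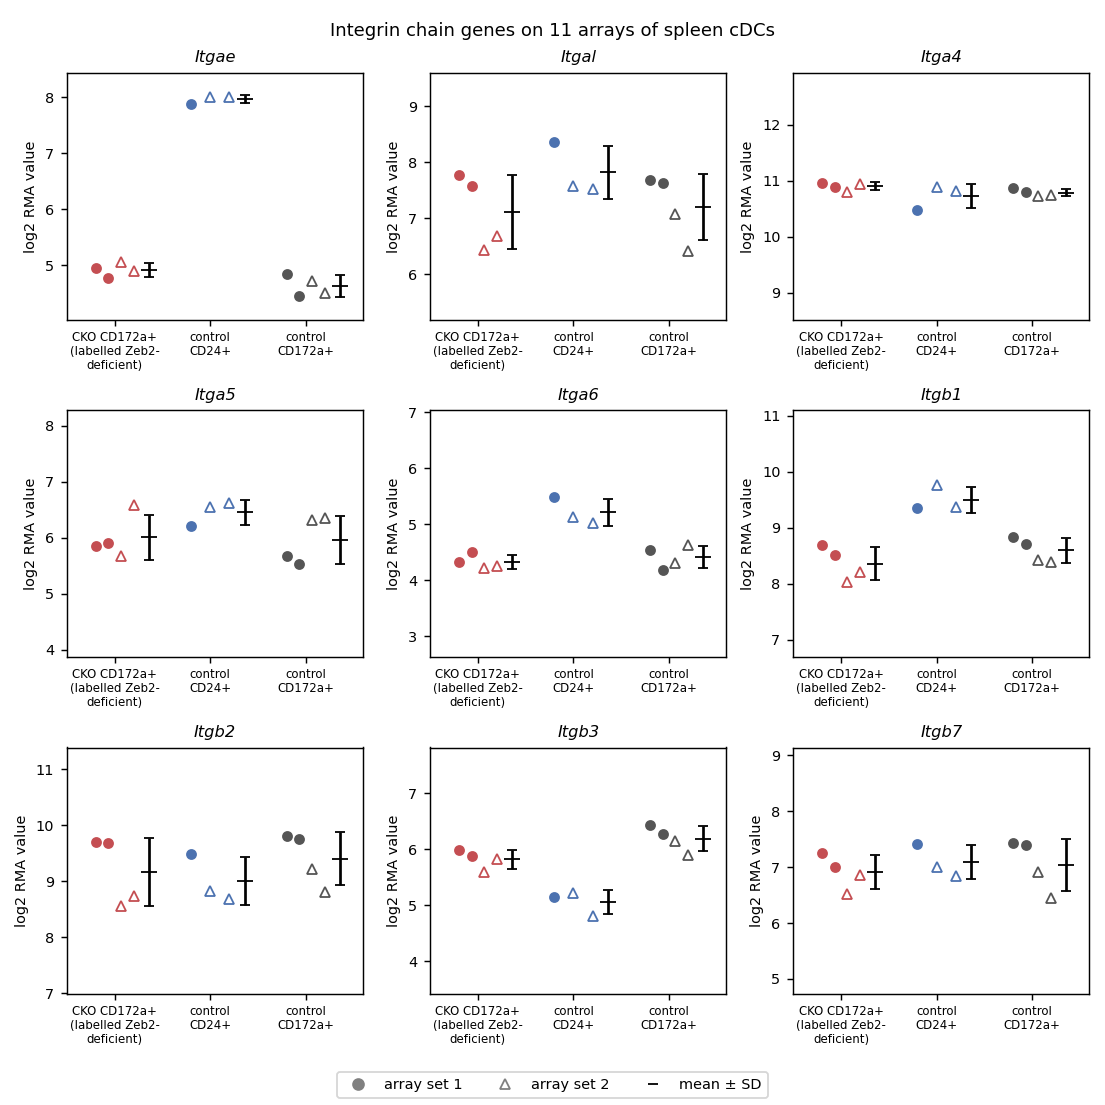
Log2 RMA values of the 9 integrin chain genes on every array, with a panel per gene and its own y axis of equal span; groups run from CD172a+ cDCs labelled Zeb2-deficient (CKO) over control CD24+ to control CD172a+ cDCs, symbols mark the 2 array sets, and bars give the mean ± SD. Itgae stands at 7.88 to 8.01 on the CD24+ arrays, above every CD172a+ array, while Itgal, Itgb2 and Itgb7 read lower in the second array set than in the first in every group.

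Itgae, the CD103 chain, read 4.95, 4.77, 5.05 and 4.89 on the arrays labelled Zeb2-deficient, 7.88, 8.01 and 8.01 in control CD24+ cDCs, and 4.85, 4.44, 4.72 and 4.5 in control CD172a+ cDCs (log2 values, as all levels here). Every CD24+ array was above every CD172a+ array, and the CD172a+ groups overlapped. The mean was 7.97 ± 0.074 in CD24+ cDCs (SD, n = 3) and 4.63 ± 0.19 in control CD172a+ cDCs (SD, n = 4), a 10.1-fold difference (log2 3.34, SE 0.116, limma adjusted p = 6.46e-08). Within the first and second array set the difference was 3.24 and 3.40. Against CD24+ cDCs the arrays labelled Zeb2-deficient were lower by a log2 difference of -3.05 (SE 0.116, limma adjusted p = 1.32e-07). The mean of the labelled Zeb2-deficient group was 4.92 ± 0.12, and its difference of 0.29 from control CD172a+ cDCs (95% interval 0.05 to 0.52) did not pass over all genes (limma adjusted p = 0.998). That difference was 0.21 and 0.36 within the sets. Both CD172a+ means lie under the median level of all genes, near 5.5, and dim probe sets are known to understate folds. In these sorted bulk samples a change in the share of expressing cells and a change in RNA per cell cannot be told apart.

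Itgb7, the beta chain that Itgae needs for surface expression, did not pass in any comparison. It read 7.25, 7.01, 6.52 and 6.86 on the arrays labelled Zeb2-deficient, 7.42, 7.0 and 6.84 in control CD24+ cDCs, and 7.43, 7.39, 6.92 and 6.44 in control CD172a+ cDCs. All 3 groups overlapped. The difference between CD24+ and control CD172a+ cDCs was 0.05 (95% interval -0.51 to 0.60, limma adjusted p = 0.972), and that between labelled Zeb2-deficient and control CD172a+ cDCs was -0.14 (-0.65 to 0.38, adjusted p = 0.998). In each group the second array set read lower than the first, by -0.44 on the labelled Zeb2-deficient arrays, -0.50 in CD24+ and -0.73 in control CD172a+ cDCs.

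Itga4, the other alpha chain that pairs with beta 7 and also with beta 1, had the narrowest spread within the CD172a+ groups. It read 10.96, 10.89, 10.81 and 10.95 on the arrays labelled Zeb2-deficient, 10.48, 10.89 and 10.82 in control CD24+ cDCs, and 10.87, 10.81, 10.73 and 10.74 in control CD172a+ cDCs. The groups overlapped. The differences were 0.11 for labelled Zeb2-deficient compared with control CD172a+ cDCs (95% interval -0.10 to 0.33, limma adjusted p = 0.998) and -0.06 for CD24+ against control CD172a+ cDCs (-0.29 to 0.18, adjusted p = 0.904). Within the sets the second of these was -0.36 and 0.12, and the low value was that of the single CD24+ array of the first set.

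Itgb1 pairs with many alpha chains and was higher in CD24+ cDCs. It read 8.70, 8.51, 8.03 and 8.20 on the arrays labelled Zeb2-deficient, 9.36, 9.76 and 9.36 in control CD24+ cDCs, and 8.84, 8.72, 8.43 and 8.39 in control CD172a+ cDCs. Every CD24+ array was above every CD172a+ array. The mean was 9.49 ± 0.23 in CD24+ (n = 3) and 8.59 ± 0.22 in control CD172a+ cDCs (SD, n = 4), a 1.87-fold difference (log2 0.90, SE 0.181, limma adjusted p = 0.0117). This call was lost without CD24+ replicate 2 (log2 difference 0.77, adjusted p = 0.0625), and the difference was 0.58 and 1.15 within the first and second sets. The arrays labelled Zeb2-deficient averaged 8.36 ± 0.30, lower than CD24+ cDCs by a log2 difference of -1.13 (adjusted p = 0.00249), with 11 of 11 arrays-left-out fits keeping the call. Their difference of -0.23 from control CD172a+ cDCs did not pass (95% interval -0.60 to 0.14, adjusted p = 0.998).

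The stretches upstream of the start sites of Itgb1, which differed between subsets, and Itgb7, which did not pass, are shown because Zeb2 is known to bind E-boxes of the form CACCTG. Of the 9 members 4 matched RefSeq's promoter table by symbol (Itga4, Itga5, Itgb1 and Itgb7, build GRCm38.p6). The window is the 250 bases before the start, and both strands were searched. The form CACCTG stood in 0 of the 4 windows, against 17.2% of all 32851 promoter windows. It was the only Zeb2 form searched, so the count does not show that the windows lack a Zeb2 site. The general E-box CANNTG, which includes CACCTG, stood in 3 of the 4, against 66.2% of all. A GC box, spelled GGGCGG, also stood in 3 of the 4, against 32.7% of all. The Itgb1 window is chr8:128685404-128685653 on the plus strand and the Itgb7 window chr15:102231936-102232185 on the minus strand. Capitals mark the GC box in Itgb1 and the general E-box in Itgb7, and matching letters describe the windows without showing binding.
Itgb1: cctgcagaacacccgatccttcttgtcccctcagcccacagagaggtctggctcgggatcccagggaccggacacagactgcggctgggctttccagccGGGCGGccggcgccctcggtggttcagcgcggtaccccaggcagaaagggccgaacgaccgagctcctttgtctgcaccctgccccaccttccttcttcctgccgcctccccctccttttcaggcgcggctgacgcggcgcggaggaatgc
Itgb7: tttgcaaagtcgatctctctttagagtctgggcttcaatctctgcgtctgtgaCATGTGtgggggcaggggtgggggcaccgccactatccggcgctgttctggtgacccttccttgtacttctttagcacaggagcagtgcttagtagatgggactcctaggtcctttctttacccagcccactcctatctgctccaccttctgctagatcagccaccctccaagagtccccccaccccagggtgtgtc

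Itga6, a laminin receptor chain that pairs with beta 1, was also higher in CD24+ cDCs. It read 4.32, 4.5, 4.21 and 4.25 on the arrays labelled Zeb2-deficient, 5.49, 5.14 and 5.02 in control CD24+ cDCs, and 4.53, 4.19, 4.31 and 4.63 in control CD172a+ cDCs. Every CD24+ array was above every CD172a+ array. The difference between CD24+ and control CD172a+ cDCs was 1.74-fold (log2 0.80, SE 0.142, limma adjusted p = 0.0056), and it was 1.13 and 0.61 within the sets. Labelled Zeb2-deficient arrays were lower than CD24+ ones by a log2 difference of -0.89 (adjusted p = 0.00252) and differed by -0.09 from control CD172a+ cDCs (95% interval -0.38 to 0.20, adjusted p = 0.998). The means of all 3 groups were below the median level of all genes, so these folds may be understated as well.

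Itga5, the fibronectin receptor chain, did not pass in any comparison. It read 5.85, 5.90, 5.68 and 6.59 on the arrays labelled Zeb2-deficient, 6.20, 6.54 and 6.62 in control CD24+ cDCs, and 5.67, 5.52, 6.30 and 6.35 in control CD172a+ cDCs. The groups overlapped, and the second array set read higher than the first in each, by 0.26, 0.38 and 0.73 in the same order of groups. The difference was 0.49 for CD24+ against control CD172a+ cDCs (95% interval -0.07 to 1.06, limma adjusted p = 0.407) and 0.04 for labelled Zeb2-deficient compared with control CD172a+ cDCs (-0.48 to 0.57, adjusted p = 0.998). The second had opposite signs within the sets, 0.28 and -0.19.

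**Figure D2:**
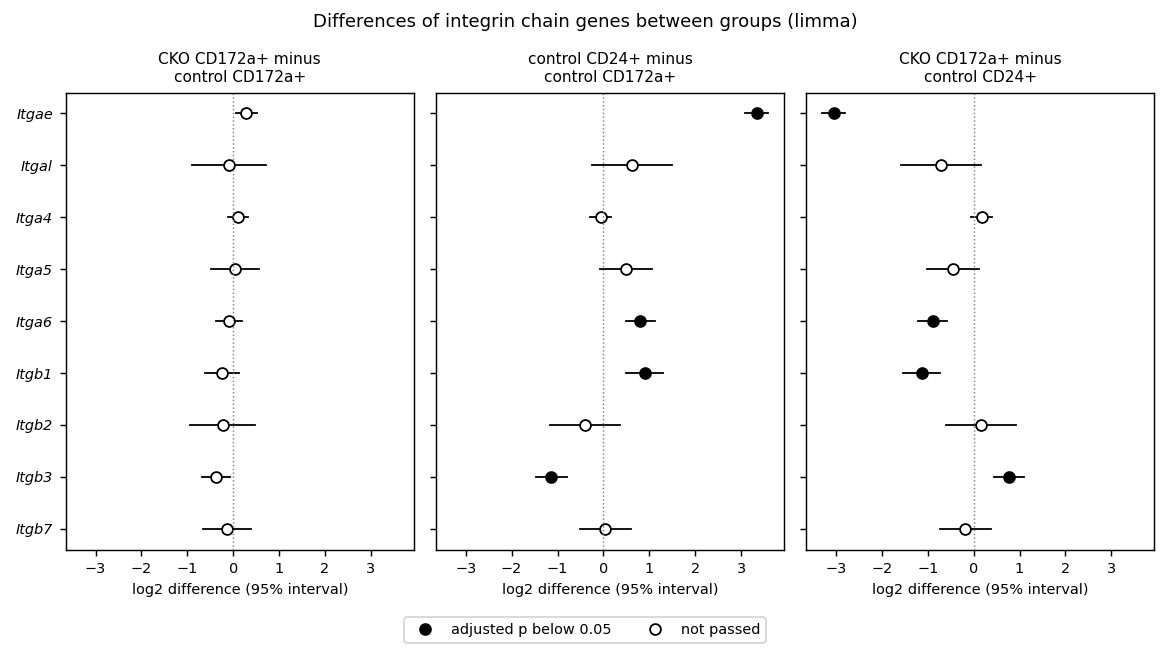
Log2 differences of the 9 integrin chain genes with 95% intervals from limma over all 11 arrays, for CD172a+ cDCs labelled Zeb2-deficient (CKO) minus control CD172a+, control CD24+ minus control CD172a+, and CKO minus control CD24+ cDCs. Filled points have an adjusted p below 0.05 over all genes; there are 0, 4 and 4 of them in the 3 panels, and Itgae at 3.34 and -3.05 lies farthest from 0.

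Itgb3, the vitronectin and fibrinogen receptor chain, was the member that was lower in CD24+ cDCs. It read 5.99, 5.89, 5.59 and 5.83 on the arrays labelled Zeb2-deficient, 5.14, 5.22 and 4.81 in control CD24+ cDCs, and 6.43, 6.28, 6.15 and 5.90 in control CD172a+ cDCs. Every CD24+ array was below every CD172a+ array, and the CD172a+ groups overlapped. The mean was 5.06 ± 0.22 in CD24+ (n = 3) and 6.19 ± 0.22 in control CD172a+ cDCs (SD, n = 4), a 2.2-fold difference (log2 -1.13, SE 0.15, limma adjusted p = 0.000709), and it was -1.21 and -1.01 within the sets. The arrays labelled Zeb2-deficient averaged 5.82 ± 0.17 and were higher than CD24+ cDCs by 0.77 (adjusted p = 0.00939). They differed from control CD172a+ cDCs by -0.37 (95% interval -0.67 to -0.06, adjusted p = 0.998), by -0.42 and -0.32 within the sets, which did not pass over all genes. The order of the group means was thus control CD172a+, labelled Zeb2-deficient CD172a+ and CD24+, and the first pair of neighbours did not pass the test. CD172a+ arrays of equal replicate number lay within 1 array set in each pair, and the labels state no pairing. Between them Itgb3 was lower on the labelled Zeb2-deficient array in 4 of 4 pairs (-0.44, -0.39, -0.56 and -0.073). Itgb3 still did not pass in a fit blocked by replicate number (limma adjusted p = 0.492 over all arrays and 0.339 over the CD172a+ arrays alone). In the same pairs Itgae and Itga4 were higher in 4 of 4, and Itgb1 and Itgb2 lower in 4 of 4, and none of these passed in those blocked fits either. The share of all genes with the same sign in 4 of 4 pairs was not counted. These signs, that of Itgb3 included, are therefore not read as a result about the members.

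The alpha partners of Itgb3 did not pass between the subsets. Itgav, the alpha V chain, differed by 0.16 between CD24+ and control CD172a+ cDCs (limma adjusted p = 0.758), and Itga2b, the alpha IIb chain of platelets, by 0.04 (adjusted p = 0.966). Of 8 platelet and megakaryocyte markers 5 were measured and 0 passed in any comparison in limma, with 0 also at an unadjusted p below 0.05. Their mean log2 level was 4.76 to 4.99 on the arrays labelled Zeb2-deficient, 4.75 to 4.91 in CD24+ and 4.66 to 5.04 in control CD172a+ cDCs. Red pulp macrophage markers had 1 of 7 lower in CD24+ cDCs and 0 higher, with list means of 5.86 to 7.13, 5.25 to 5.89 and 5.80 to 6.94 in the same order of groups. Of 5 measured monocyte markers 1 was lower and 0 higher in CD24+ than in control CD172a+ cDCs. With the array set as a block 1 was higher and 2 lower there. On the labelled Zeb2-deficient arrays 1 was lower and 0 higher than in control CD172a+ cDCs, where the median log2 difference of the list was -0.94. Labelled Zeb2-deficient arrays against CD24+ cDCs had 1 monocyte marker higher and 2 lower. In that comparison 1 of 7 red pulp macrophage markers was higher and 0 lower, where 3.25% of all genes were higher and 3.92% lower. The monocyte list means were 6.35 to 7.27 on the labelled Zeb2-deficient arrays, 6.98 to 7.41 in CD24+ and 7.10 to 8.09 in control CD172a+ cDCs. The part of macrophage or monocyte RNA in the Itgb3 differences was not tested.

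Itgal, the alpha chain of LFA-1, passed only when the array set was taken into account. The sets were found in these same values, so p-values of fits that use them may be too small. It read 7.77, 7.59, 6.43 and 6.68 on the arrays labelled Zeb2-deficient, 8.37, 7.58 and 7.52 in control CD24+ cDCs, and 7.69, 7.64, 7.07 and 6.42 in control CD172a+ cDCs. Over all arrays CD24+ and control CD172a+ cDCs overlapped, while within each set every CD24+ array was above every CD172a+ array. The second set read lower than the first by -1.13, -0.82 and -0.92 in labelled Zeb2-deficient, CD24+ and control CD172a+ cDCs. The difference between CD24+ and control CD172a+ cDCs was 0.62 (SE 0.396, limma adjusted p = 0.557) over all arrays, 0.78 (SE 0.145, adjusted p = 0.00253) with the array set as a block, and 0.70 and 0.81 within the sets. Labelled Zeb2-deficient against CD24+ cDCs gave -0.71 (adjusted p = 0.408) and -0.87 (adjusted p = 0.00109) with the block. Against control CD172a+ cDCs the labelled arrays differed by -0.09 (95% interval -0.90 to 0.72, adjusted p = 0.998). With the block 5 of the 9 chain genes passed for CD24+ against control CD172a+ cDCs, 4 higher and 1 lower, where 15.4% of all genes did, 8.55% higher and 6.9% lower, and 5 of 9 for labelled Zeb2-deficient against CD24+ cDCs, 1 higher and 4 lower, where 18.3% did, 7.52% higher and 10.7% lower. With it 0 of 9 passed between the CD172a+ groups, where 0.145% of all genes passed, 0.0903% higher and 0.0552% lower. With replicate number as the block in place of the array set, Itgal did not pass. It then differed by 0.41 for CD24+ against control CD172a+ cDCs and by -0.50 for labelled Zeb2-deficient against CD24+ cDCs (limma adjusted p = 0.309 and 0.177).

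CD103 and LFA-1 are also carried by T cells and NK cells, whose markers were read beside these genes. Of 6 measured T cell markers and 7 NK cell markers, 0 passed in any of the 3 comparisons in limma. At an unadjusted p below 0.05 there was 1 of each for CD24+ compared with control CD172a+ cDCs, 1 NK cell marker for labelled Zeb2-deficient compared with CD24+ cDCs, and 0 of both between the CD172a+ groups. The mean log2 level of the T cell list was 5.17 to 5.32 on the arrays labelled Zeb2-deficient, 5.03 to 5.19 in CD24+ and 5.16 to 5.40 in control CD172a+ cDCs. For the NK cell list it was 4.67 to 5.15, 4.79 to 5.0 and 4.57 to 4.90 in the same order. For both lists the range of the CD24+ arrays overlapped those of the CD172a+ groups. The part of T cell or NK cell RNA in the Itgae and Itgal values was not tested. Of 6 measured B cell markers, 1 was higher on the labelled Zeb2-deficient arrays than in control CD172a+ cDCs, with list means of 5.41 to 5.95 against 4.77 to 5.23. Against CD24+ cDCs 2 of the 6 were higher and 0 lower, where 3.25% of all genes were higher and 3.92% lower. Of 6 plasmacytoid dendritic cell markers, 1 was higher and 0 lower on the labelled arrays than in control CD172a+ cDCs. At an unadjusted p below 0.05 in limma there were 3 of the 6, against 3.88% of all genes. Between the CD172a+ groups 0.0401% of all genes were called higher and 0.01% lower. The plasmacytoid list means were 6.94 to 7.09 on the labelled arrays against 6.38 to 6.70 in control CD172a+ cDCs. In each of the comparisons with CD24+ cDCs 1 of these 6 markers was higher and 1 lower. The part of B cell or plasmacytoid dendritic cell RNA in the values of the chain genes was not tested.

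Itgb2, the beta chain shared by LFA-1 and the CD11 integrins, did not pass. It read 9.71, 9.68, 8.57 and 8.73 on the arrays labelled Zeb2-deficient, 9.49, 8.83 and 8.69 in control CD24+ cDCs, and 9.82, 9.75, 9.23 and 8.82 in control CD172a+ cDCs. The groups overlapped, and the second set read lower than the first by -1.04, -0.73 and -0.76 in these groups. CD24+ against control CD172a+ cDCs differed by -0.40 (95% interval -1.16 to 0.36, limma adjusted p = 0.718) and by -0.26 with the array set as a block (adjusted p = 0.188). Labelled Zeb2-deficient against control CD172a+ cDCs differed by -0.23 (-0.94 to 0.47, adjusted p = 0.998), by -0.09 and -0.37 within the sets. Itgam, the CD11b chain, was lower in CD24+ than in control CD172a+ cDCs by a log2 difference of -4.06 (adjusted p = 4.49e-06), while Itgax, the CD11c chain, differed by -0.68 (adjusted p = 0.336, and 0.00827 with the block).

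**Figure D3:**
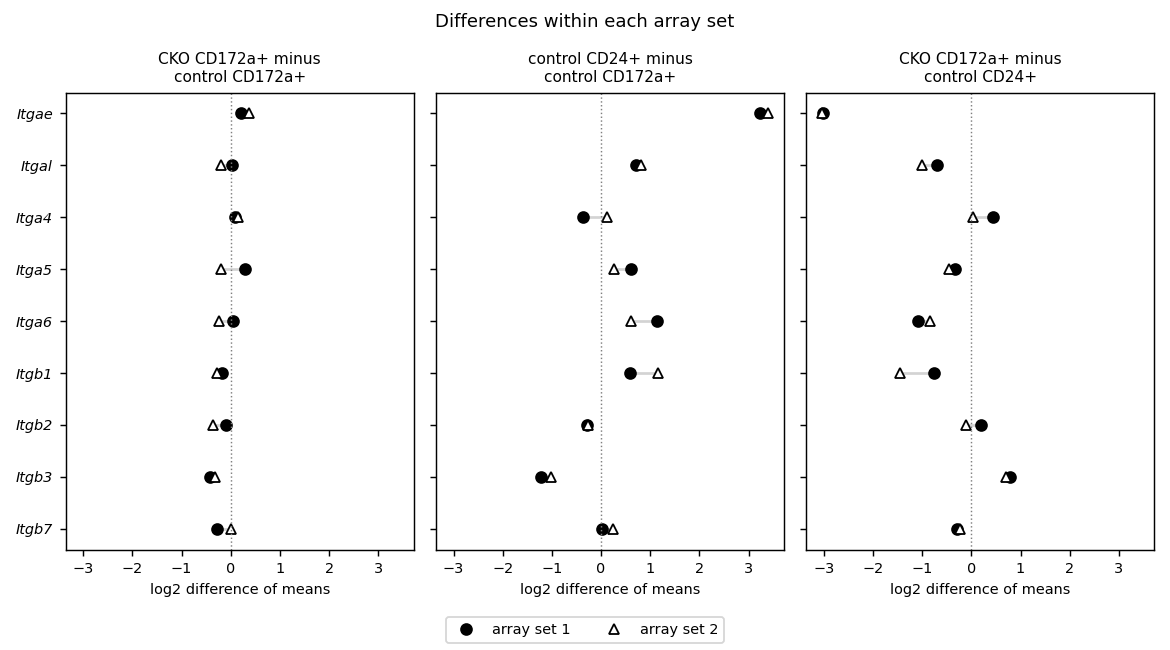
Log2 differences of group means within the first array set (filled circles) and the second (open triangles) for the 9 integrin chain genes, in the 3 comparisons. For control CD24+ minus control CD172a+ cDCs, Itgae, Itgal, Itga5, Itga6, Itgb1 and Itgb7 are above 0 and Itgb2 and Itgb3 below 0 in both sets, Itga4 has opposite signs, and the first set holds 1 CD24+ array.

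The other integrin chains were read as a list of 18, all measured. In CD24+ against control CD172a+ cDCs 3 were higher, 2 lower and 13 did not pass, with a median log2 difference of -0.06. Over all genes 3.25% were higher and 3.16% lower in that comparison. Those higher were Itga8, Itga1 and Itga3. Itga8, a receptor chain for nephronectin, read 3.96, 4.20, 4.36 and 4.08 on the arrays labelled Zeb2-deficient, 7.91, 6.91 and 7.26 in CD24+ cDCs, and 4.16, 4.0, 4.23 and 4.43 in control CD172a+ cDCs, and CD24+ cDCs were clear of both other groups. Its difference between CD24+ and control CD172a+ cDCs was 3.16 (SE 0.205, limma adjusted p = 3.63e-06), and 3.83 and 2.76 within the sets. Itga1, a collagen receptor chain, was higher in CD24+ cDCs by 1.38 (SE 0.153, adjusted p = 0.000207). Itga3, a laminin receptor chain, was higher by 1.68 (adjusted p = 0.0364), with CD24+ values of 5.72 on the array of the first set and 7.53 and 7.83 in the second. Every CD172a+ array of the second set, in both groups, held the identical Itga3 value of 5.68. Those arrays thus show no spread among themselves, and the adjusted p-values for Itga3 may be too small. The Itga3 call was lost in 10 of 11 fits that left out 1 array, with adjusted p up to 0.159, and kept without CD24+ replicate 1 (log2 difference 2.34, adjusted p = 0.000185). Itgam and Itgad, the CD11d chain, were the 2 that were lower, and the Itgad call (-0.94, adjusted p = 0.0136) was lost without CD24+ replicate 1 (-0.79, adjusted p = 0.0577), with the 2 groups alone (adjusted p = 0.0606) and by its other probe set (-0.15, adjusted p = 0.608).

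Between the CD172a+ groups 1 of these 18 chains passed, where 0.0502% of all genes did. Itgad averaged 7.83 ± 0.14 on the arrays labelled Zeb2-deficient and 5.54 ± 0.36 in control CD172a+ cDCs (SD, n = 4 each), a log2 difference of 2.29 (limma adjusted p = 0.000372), and its second probe set differed by -0.010 and did not pass (adjusted p = 0.999). Itgad is not among the chains taken as lying outside the Itgax locus, and only the labelled group carried the CD11c-Cre transgene. For Itgad too, effects of the transgene and of Zeb2 loss cannot be told apart. Itgam differed by 0.34 and Itgax by 0.32 (adjusted p = 0.998 for each). Itgal is on the same chromosome as the Itgax locus, with 36 protein-coding genes between Itgal and Itgax in the RefSeq table of GRCm38.p6, and it did not pass, as given above. Against CD24+ cDCs, labelled Zeb2-deficient arrays were higher in 2 of the 18, Itgam (4.4) and Itgad (3.24), and lower in 2, Itga8 (-3.21) and Itga1 (-1.30). Over all genes 3.25% were higher and 3.92% lower in that comparison. By its other probe set Itgad differed there by 0.14 (adjusted p = 0.562). Itga3 differed by -1.5 there and did not pass (adjusted p = 0.0583), though it did with the array set as a block (-1.36, adjusted p = 0.00285) and without CD24+ replicate 1 (-2.15). These fits also rest on the identical Itga3 values of the CD172a+ arrays in the second set.

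**Figure D4:**
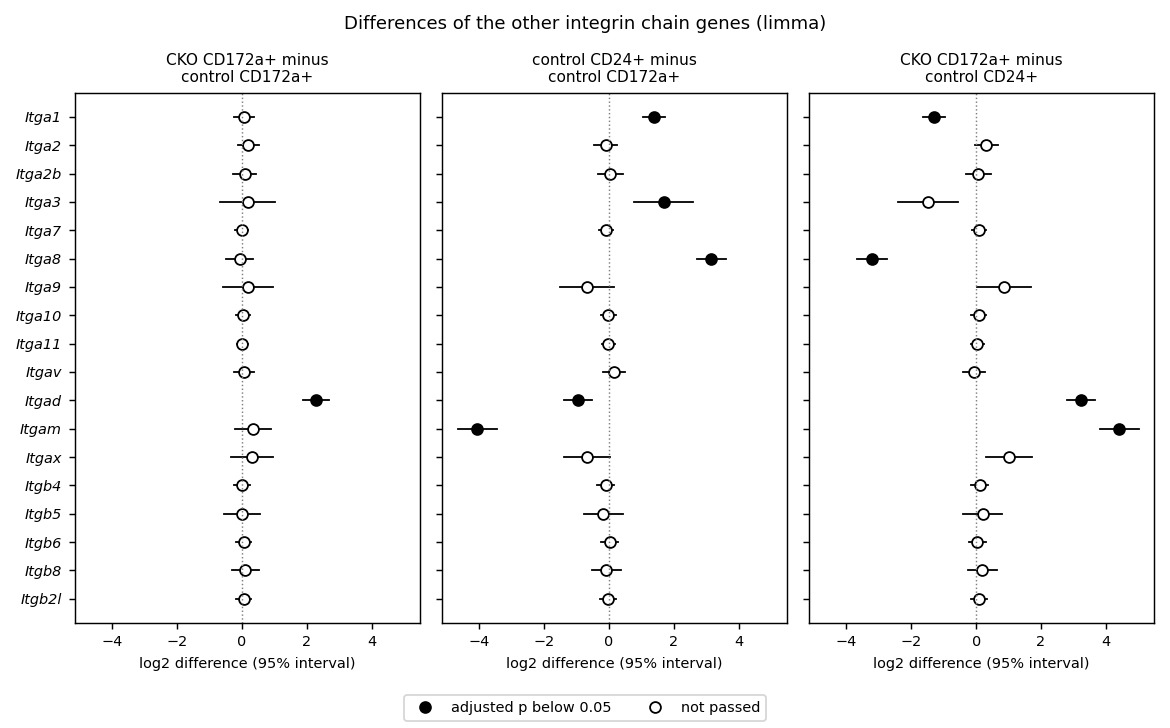
Log2 differences with 95% intervals from limma for the 18 other integrin chain genes in the same 3 comparisons, with filled points for an adjusted p below 0.05 over all genes. Itgad at 2.29 is the single filled point between the CD172a+ groups, and Itga8, Itga3 and Itga1 are above 0 in control CD24+ minus control CD172a+ cDCs.

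Genes that activate integrins or link them to the cytoskeleton were read as a list of 31, of which 30 were measured. In CD24+ against control CD172a+ cDCs 1 was higher, 4 lower and 25 did not pass (median -0.02), where 3.25% of all genes were higher and 3.16% lower. Fyb, the adaptor ADAP that helps activate integrins in T cells, was lower in CD24+ cDCs (9.48 ± 0.078, n = 3, against 10.97 ± 0.076, n = 4, SD), a difference of -1.5 (limma adjusted p = 1.67e-06). Rasgrp2, the exchange factor that loads the integrin activator Rap1, was lower by -0.94 (adjusted p = 0.000917), and the focal adhesion family kinase gene Ptk2b by -0.46 (adjusted p = 0.0324). Dab2, an endocytic adaptor that binds beta tails, was lower by -0.75 (adjusted p = 0.0161). The Dab2 call was lost without CD24+ replicate 1 or 2 (adjusted p = 0.0669 and 0.059), and its other probe set differed by -0.08. Itgb1bp1, which encodes the beta 1 tail binding protein ICAP-1, was the 1 that was higher, by 0.89 (adjusted p = 0.0268), with 0.20 and 1.36 within the sets. That call was lost without CD24+ replicate 2 or 3 or control CD172a+ replicate 4 (adjusted p = 0.122, 0.12 and 0.0561).

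Between the CD172a+ groups 0 of these 30 genes passed, where 0.0502% of all genes did. At an unadjusted p below 0.05 in limma there were 2 of the 30, against 3.88% of all genes. These were Dab2 (-0.70) and Flna (-0.40), each lower on the labelled Zeb2-deficient arrays. Labelled Zeb2-deficient arrays against CD24+ cDCs had 3 of the 30 higher and 2 lower, where 3.25% of all genes were higher and 3.92% lower. Fyb (1.52) and Rasgrp2 (0.86) were higher, as was Ptk2b (0.47, limma adjusted p = 0.0277), whose call was lost in 5 of 11 fits that left out 1 array. Flna, the actin crosslinker filamin A that binds beta tails, was lower by -0.58 (adjusted p = 0.00377). It kept that call in 11 of 11 fits that left out 1 array. Within the sets Flna differed by -0.60 and -0.55, and it did not pass within the second (limma adjusted p = 0.0719). Itgb1bp1 was the other one that was lower, by -0.78 (adjusted p = 0.0485), which is close to the threshold. It differed by -0.39 and -0.93 within the sets, and leaving out arrays was not tried for it in this comparison.

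For the 4 chain genes that passed between the subsets, the genes of most similar pattern were found by the root mean square difference of centred log2 values over the 11 arrays. Genes removed by a filter on names, described below, were not searched. This describes the arrays and includes the group and array set differences. Nearest to Itgae were Clec4b2, a C-type lectin receptor, with 0.233, Clnk, an adaptor of immune receptors, with 0.251, and Gpr33, a chemoattractant-like receptor, with 0.262, where Itgae itself had an SD of 1.5. Their CD24+ minus control CD172a+ differences were 3.17, 3.14 and 3.51, and values close to that of Itgae follow from choosing genes by likeness to it. Nearest to Itgb1 were Vcp (0.118), Psmd7 (0.13) and Nup93 (0.133), genes of protein degradation and of the nuclear pore. Itga6 was closest to Hipk2 (0.128), Zfp386 (0.142) and Synrg (0.153). Itgb3 was closest to Arhgap39 (0.144), Ptprc, which encodes the leukocyte phosphatase CD45 (0.166), and Hlx (0.175).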

How the data were processed

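The authors deposited a table of log2 values, 1 per array and probe set. The submitters' processing notes name RMA, a method that subtracts background, normalizes quantiles between arrays and summarises probes. Software version, probe filters and build are not given in the sources used here. Array medians of the deposited log2 values lay between 5.45 and 5.52, and precision is limited by how few arrays there are. Titles gave each array's group and replicate number. Gene symbols came from the platform annotation (21789 of 30177 carried 1 symbol), which left 19938 genes, each by its highest-mean probe set. All 9 members matched the RefSeq table by Entrez identifier.

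The tests used limma 3.58.1 (R 4.3.3), with group as the only factor over 11 arrays (8 residual degrees of freedom), two-sided, with Benjamini-Hochberg adjustment over all 19938 genes at 0.05. Intervals are limma's 95% intervals, not adjusted. The fitting was tested on simulated data with independent noise and no array sets. It is therefore no check of the fits where array sets are present. Sequences were read with pandas 2.3.3 and figures drawn with matplotlib 3.10.9 in Python 3.11.15.

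The members and lists were chosen with earlier results of these data known. Named genes were the 9 members, 5 related chains (Itgam, Itgad, Itgax, Itgav and Itga2b), up to 4 genes per list and comparison with the smallest p among those passing, and the 3 most similar genes to each member passing between the subsets, leaving out predicted and non-coding genes. Itga3, Ptk2b between the control subsets, Itgb1bp1, Dab2 and Flna where they did not pass or were not among the 4, and all ligands were named outside this rule after their values were seen. To see whether equal replicate numbers pair arrays, each array's deviations from its group mean were correlated over genes. For labelled Zeb2-deficient and control CD172a+ arrays the 4 same-number pairs gave r between 0.442 and 0.68, all above the 0.1 taken as pairing. Each of these pairs lies within 1 array set, and arrays of unequal number within a set were not compared. Pairing by number and a shared array set thus cannot be told apart, and the labels state no pairing. For CD24+ arrays number 2, which is in the other set than its partners, gave -0.361 and -0.445. Alternatives were the array set or replicate number as a block, fits within each set or on the compared groups alone, other variance models, array weights, a filter on dim genes, other normalizations, other probe sets and leaving out each array.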

Additional observations from a re-analysis of the deposited data

How the results depend on the processing

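The number of chain genes passing was 0 for labelled Zeb2-deficient compared with control CD172a+ cDCs under every alternative run. With 1 array left out it was 3 to 4 for CD24+ against control CD172a+ cDCs and 4 in each fit for labelled Zeb2-deficient against CD24+ cDCs. Under the other alternatives it was 3 to 5 in both, the 3 coming from the filter on dim genes, which removed Itga6. Within the first set Itgal and Itgb1 had adjusted p = 0.0471 and 0.0864 for CD24+ against control CD172a+ cDCs, but that set holds 1 CD24+ array, which is assumed to vary like the CD172a+ arrays. Within the second Itgb3 did not for labelled Zeb2-deficient against CD24+ cDCs (adjusted p = 0.0653). With the replicate block over all arrays the number of chain genes passing stayed at 0, 4 and 4, and no call of a member changed.

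Over all genes, the count between the CD172a+ groups was 10, and it became 29 in the array-set block fit, 0 within the first set (2 arrays a group), 26 with the replicate block on the CD172a+ arrays alone (added after seeing the data), 11 with the replicate block over all arrays and 5 with the 2 groups alone. It was 3641 in place of 1429 for labelled Zeb2-deficient against CD24+ cDCs and 3080 in place of 1278 for CD24+ against control CD172a+ cDCs in that block fit. With 1 array left out these counts were 7 to 11, 985 to 1533 and 874 to 1220.

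Some differences near 0 changed sign. For CD24+ against control CD172a+ cDCs, Itga4 was 0.12 within the second set, 0.0011 with array weights and -0.14 to 0.065 with 1 array left out. Itgb7 was -0.064 with the replicate block, -0.18 with array weights and -0.16 to 0.17 with 1 array left out. Itga2b was -0.022 in the array-set block fit, -0.096 within the first set and -0.12 to 0.18 with 1 array left out. Between the CD172a+ groups, Itga5 was -0.19 within the second set and -0.15 to 0.17 with 1 array left out, Itga6 was 0.050 within the first, Itgal 0.014 within the first and -0.35 to 0.14 with 1 array left out and Itgb7 0.0086 within the second. Itgb2 for labelled Zeb2-deficient against CD24+ cDCs was -0.11 within the second set and -0.0071 to 0.42 with 1 array left out. Under the alternatives listed here none of these passed in limma, and the cause was not tested. By contrast Itgad, called at 2.29 between the CD172a+ groups, was -0.010 by its other probe set of lower mean (adjusted p = 0.999), so that call rests on 1 of 2 probe sets. Each member had 1 probe set, so no other could be tried for them.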

Other observations

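Genes of integrin ligands were read as a list of 27, of which 25 were measured. In limma over all arrays 0 of 25 passed in each of the 3 comparisons, and at an unadjusted p below 0.05 there were 0 between the CD172a+ groups, 2 for CD24+ compared with control CD172a+ cDCs and 1 for labelled Zeb2-deficient compared with CD24+ cDCs. Over all genes 3.88%, 15.9% and 18% had such an unadjusted p in the same order of comparisons. With the array set as a block 2 were lower in CD24+ than in control CD172a+ cDCs, namely Thbs1, the matrix protein thrombospondin 1 (log2 difference -1.64, adjusted p = 5.56e-05), and Icam2, a ligand of LFA-1 (-0.58, adjusted p = 0.00206), where 6.9% of all genes were lower in that fit. Over all arrays their differences were -1.41 and -0.67 (adjusted p = 0.231 and 0.163). In labelled Zeb2-deficient against CD24+ cDCs 2 were higher with the block, Thbs1 (1.00, adjusted p = 0.00225) and F11r, the junction protein JAM-A (0.51, adjusted p = 0.033), where 7.52% of all genes were higher in that fit. In the called direction 2 of the 25 ligand genes are thus near the share over all genes in both comparisons. Counting either direction, the same 2 of 25 in each lie below the share over all genes, 15.4% and 18.3% in those fits. F11r was 0.55 over all arrays (adjusted p = 0.105), and 0.98 within the first set, which holds 1 CD24+ array, and 0.20 within the second. Thbs1 was 0.77 over all arrays there (adjusted p = 0.555). All genes named here were chosen after their values were seen. Thbs1 averaged 6.59 on the labelled Zeb2-deficient arrays of the second set and 5.13 on those of the first, and 7.42 and 5.58 in the same order of sets in control CD172a+ cDCs. Cdh1, the E-cadherin that CD103 binds, and Vcam1 and Madcam1, ligands of the alpha 4 integrins, did not pass in any comparison.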
